A study of Homo sapiens with 4 samples.

Results

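The YTH domain genes YTHDF3, YTHDF2, YTHDF1, YTHDC1 and YTHDC2 encode the human proteins that bind N6-methyladenosine (m6A) in RNA through a YTH domain, and they were selected by name from the table of m6A peaks. Of the 5 genes, 3 had a listed peak: YTHDF3 had 8 peaks, YTHDF2 had 5 and YTHDC1 had 3, which makes 16 of the 27678 listed peaks. YTHDF1 and YTHDC2 had no entry. Over all 19936 protein-coding genes, 36.1% had a listed peak.

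The peaks came from m6A-seq of poly(A) RNA from one breast cancer line, with no treatment given. The design and growth protocol name MDA-MB-231Br, which was derived from MDA-MB-231 for its homing to the brain, while the label for the line reads MDA-MB-231. The extraction protocol names embryos instead, a conflict that the labels do not resolve. The groups were the m6A immunoprecipitate (IP, 2 libraries, made with an m6A antibody) and the input (2 libraries of the same kind of RNA without that antibody), and the labels do not say whether the libraries came from separate cultures. The table gave 1 IP and 1 input read count per peak, so each value below is a pooled count without replicate error, and the exact 95% intervals cover counting error only. Summed over the listed peaks there were 4917888 IP and 4790407 input reads, a ratio of 1.03. Of 8 genes that mark a mesenchymal, basal-like line, 6 had a listed peak (VIM, CD44, AXL, EGFR, ZEB1 and CAV1), and SPARC and FN1 had none. Of 7 luminal or epithelial genes, 2 had a listed peak (EPCAM and GATA3). The hormone receptor genes ESR1 and PGR were unlisted, as were ERBB2, CDH1 and KRT8. Over all protein-coding genes the listed share was 36.1%. A listing depends on both expression and the authors' thresholds, so it does not measure expression.

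YTH proteins read the mark that the METTL3 and METTL14 methyltransferase writes on mRNA. The YTHDF proteins are cytoplasmic and closely related to each other: YTHDF2 brings methylated mRNA to the CCR4-NOT deadenylase and speeds its decay, YTHDF1 is linked to translation, and YTHDF3, which the study's title names, has been linked to both. YTHDC1 is the nuclear reader and acts in splicing and export, and YTHDC2 is a helicase known for its part in meiosis. Their own mRNAs can carry the mark too. The listed peaks are windows of IP and input reads on those mRNAs, and a listing alone does not show the mark.

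The sequences that the comparison of YTHDF2 and YTHDC1 turns on lie mostly around their start codons, with one further into the coding sequence of YTHDC1, and are shown here with matches to the methylation consensus DRACH in capitals (A, G or T, then A or G, then AC, then A, C or T; transcribed strand only, overlapping matches included). They are GENCODE release 29 transcript sequences on GRCh38, 5′ to 3′, with introns removed where the coordinates span one. A match is a string of letters and not a mapped site. The first YTHDF2 line is the only match in its 5' UTR, at chr1:28737007-28737035 on the plus strand. The second is the coding part of the YTHDF2 peak with the highest ratio of IP to input reads, from the start codon at chr1:28737121-28737678. The third is the YTHDF2 peak that begins at the next base, chr1:28737679-28742448, where that ratio was low. A further DRACH match, AAACA at positions 407 to 411, spans the boundary between these YTHDF2 lines. It is therefore in capitals in neither. The fourth is a GGAC match in the 5' UTR of YTHDC1 at chr4:68349839-68349867 on the minus strand, and the fifth is the coding part of the same peak at chr4:68338337-68349753. The last is the YTHDC1 peak with the highest ratio of that gene, chr4:68337339-68337448 in exon 4.
YTHDF2 5' UTR match: cccgagtgtcagGGACAaaagcctccgcc
YTHDF2 coding part, high ratio: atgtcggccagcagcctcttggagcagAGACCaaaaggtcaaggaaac
YTHDF2 adjoining peak, low ratio: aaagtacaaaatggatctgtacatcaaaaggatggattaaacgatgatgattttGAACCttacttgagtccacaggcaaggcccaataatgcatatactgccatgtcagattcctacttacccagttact
YTHDC1 5' UTR match: atccgggcagacGGACTgacggacgggcc
YTHDC1 coding part, low ratio: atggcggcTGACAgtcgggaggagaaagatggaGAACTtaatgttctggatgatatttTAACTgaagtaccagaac
YTHDC1 exon 4 peak: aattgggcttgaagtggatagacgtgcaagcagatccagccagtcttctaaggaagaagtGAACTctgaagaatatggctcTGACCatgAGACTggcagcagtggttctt

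The 16 peaks lay in the 5' part of their transcripts. By the authors' region column 8 were in the 5' UTR, where 17.9% of all listed peaks lie, and the other 8 were in coding sequence. None was in the 3' UTR, the region of 13.8% of all listed peaks. On reference transcript YTHDF3-216 (5193 nt) listed peaks covered 1070 nt and ended at position 1600, 68.1% of the way through the coding sequence. On YTHDF2-201 (2925 nt) they covered 1150 nt and ended at 56.9% of the coding sequence, and on YTHDC1-201 (6232 nt) they covered 565 nt and ended at 26.2%. The 3' UTRs without a peak are long and poor in GC: 3082 nt with 32.4% GC and 48 DRACH matches in YTHDF3, 826 nt with 34.9% GC and 19 matches in YTHDF2, and 3715 nt with 35.6% GC and 66 matches in YTHDC1.

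**Figure D1:**
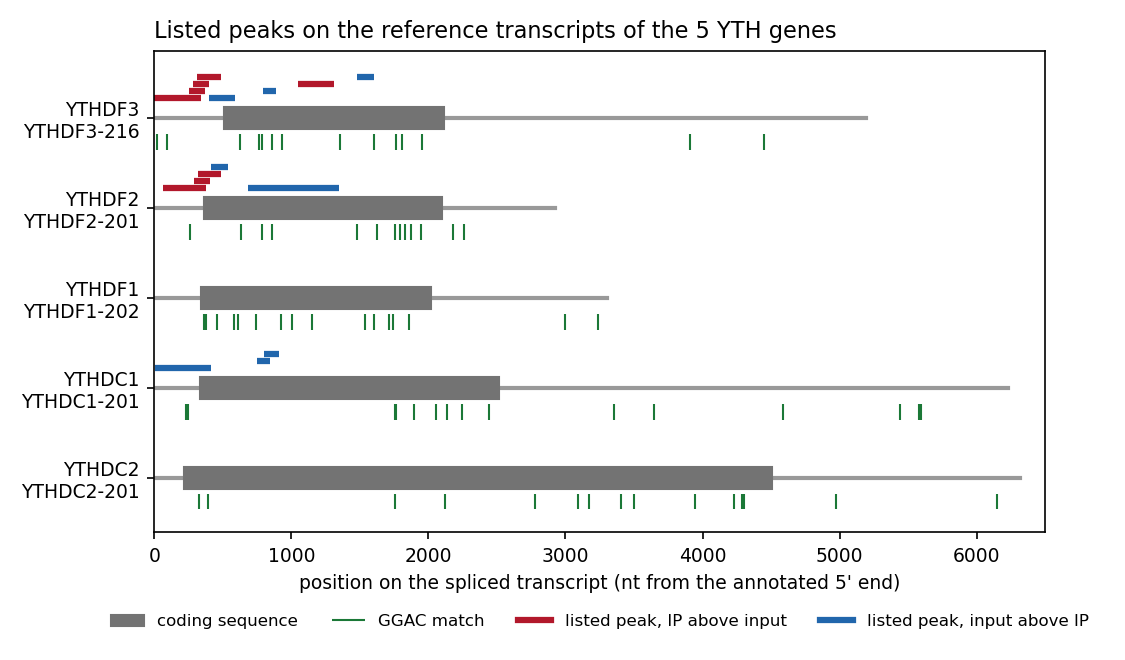
Reference transcripts of the 5 YTH genes drawn to scale from the annotated 5' end (nt), with coding sequence as grey boxes, GGAC matches as green ticks, and listed peaks as bars above, red where IP reads exceed input reads and blue where they do not. Red bars gather at the 5' ends of YTHDF3 and YTHDF2, the 3 bars of YTHDC1 are blue, and YTHDF1 and YTHDC2 carry none.

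Among the 16 peaks, IP reads exceeded input reads in 8, against 40.5% of all listed peaks, and 6 had at least 4 IP reads per input read, against 17.2%. Several of these peaks overlap, and with overlapping ones merged IP exceeded input in 3 of 8 windows. At the other end, 4 had at least 4 input reads per IP read, against 30.3%. The interval of the ratio lay wholly above 1 in 7 peaks, wholly below 1 in 7, and held 1 in the other 2. The same split over all listed peaks was not determined. Without library totals a ratio of 1 does not mark a lack of enrichment, so ratios are compared only between peaks. IP exceeded input in 7 of the 8 peaks placed in the 5' UTR by the authors, where this held for 70.1% of all listed 5' UTR peaks, and in 1 of the 8 placed in coding sequence, against 34% of all coding peaks. The family's contrast between regions has the same direction as that over the whole table.

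YTHDF3 (chromosome 8, plus strand) had the highest ratios of the family, in a group of 4 overlapping peaks at its 5' end. Counted from the annotated 5' end, peak 1 (positions 1 to 340; 63168553 to 63168892, exon 1) had 226 IP and 22 input reads, a ratio of 10.3 (6.62 to 16.7). Peak 2 (251 to 370, exons 1 and 2) had 753 IP and 35 input reads (21.5, 15.3 to 31.1). Peak 3 (281 to 400, exons 1 to 3) had 662 IP and 27 input reads (24.5, 16.7 to 37.5). Peak 4 (311 to 490, exons 1 to 4) had 551 IP and 33 input reads (16.7, 11.7 to 24.5). All 4 intervals lay above 4, and the ratio of peak 3 was higher than that of 96.9% of all listed peaks and of 89.9% of those in 5' UTRs. Since these peaks overlap by up to 90 nt, the same reads may be counted in several of them.

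Directly downstream, the IP reads of YTHDF3 were far fewer while the input reads were not. Peak 5 (401 to 590; 63173677 to 63186245, exons 3 to 5) begins at the base after peak 3 and had 15 IP and 51 input reads (0.294, 0.154 to 0.531). Per 100 nt of spliced sequence, peak 5 had 7.89 IP reads and peak 3 had 552, a 69.9-fold difference, whereas input stood at 26.8 and 22.5 reads per 100 nt. Peak 4 shares 90 nt with peak 5 and still had 551 IP reads to its 15; how the authors assigned reads to overlapping windows is not given in the sources used here. The coding peaks in exon 5 were lower than the 5' group as well. Peak 6 had 7 IP and 31 input reads (0.226, 0.0839 to 0.523), peak 7 had 72 and 59 (1.22, 0.853 to 1.75), and peak 8 had 27 and 29 (0.931, 0.530 to 1.63). Peak 6 and peak 7 have intervals that do not overlap, so the coding peaks differed among themselves beyond counting error, while those of peaks 7 and 8 overlap.

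Whether the high peaks of YTHDF3 count as 5' UTR depends on the isoform. The reference transcript YTHDF3-216, the one coding transcript whose exons give all 8 peaks a spliced length in steps of 10 nt, starts translation at position 510 in exon 5, as 5 coding transcripts do. Another 3 coding transcripts start at position 326, at the end of exon 1, which lies inside peaks 1, 2, 3 and 4. A further 4 start in an exon that YTHDF3-216 lacks. The transcripts with the early start codon have coding sequences of 1755, 1749 and 156 nt. Whether these contain position 400, in the 31 nt exon 3 of YTHDF3-216, was not determined.

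YTHDF2 (chromosome 1, plus strand) showed the same order along the transcript at lower ratios. Peak 1 (positions 61 to 380; 28736819 to 28737138, exon 1) had 13 IP and 3 input reads, a ratio of 4.33 with a wide interval of 1.19 to 23.7. Peak 2 (291 to 410, exons 1 and 2) had 429 IP and 64 input reads (6.70, 5.15 to 8.86). Peak 3 (321 to 490, exons 1 to 3) had 391 IP and 104 input reads (3.76, 3.02 to 4.71). All 3 span the start codon at position 363, and peak 2 holds the 48 coding bases printed above. Over an annotated start codon, IP exceeded input in 60.9% of 4096 placed peaks. In the family 5 peaks covered the start codon of the reference transcript, and IP exceeded input in 3 of them, all in YTHDF2.

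The step after the 5' peaks was present in YTHDF2 too. Peak 4 (411 to 540; 28737679 to 28742448, exons 2 to 4), printed above as the low-ratio peak, begins at the base after peak 2 and had 30 IP and 170 input reads (0.176, 0.116 to 0.261). Its IP reads stood at 23.1 per 100 nt, against 358 per 100 nt in peak 2, a 15.5-fold difference, while its input reads were 2.45 times as dense, at 131 and 53.3 per 100 nt. Peak 5, a coding stretch of 670 nt in exon 4 (28742589 to 28743258), had the lowest ratio of the family with 6 IP and 208 input reads (0.0288, 0.0105 to 0.0639). That ratio was higher than that of 3.03% of all listed peaks. As in YTHDF3, windows overlap at the step: peak 3 had 391 IP reads and shares 80 nt with peak 4, which had 30.

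The first exons of the YTHDF genes are alike in length, and the window boundaries at the steps in YTHDF3 and YTHDF2 lie in different exons. Exon 1 has 349 nt in YTHDF3, 389 in YTHDF2 and 369 in the unlisted YTHDF1. Exon 2 has 25 nt in each. It is followed by an 80 nt exon in YTHDF2 and YTHDF1, and by exons of 31 and 86 nt in YTHDF3-216. The boundary between the adjoining windows came after position 400 in YTHDF3, in exon 3, and after position 410 in YTHDF2, in exon 2. Other windows with more IP than input reads run to position 490 in both genes. The boundaries therefore do not place the step in an exon.

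**Figure D2:**
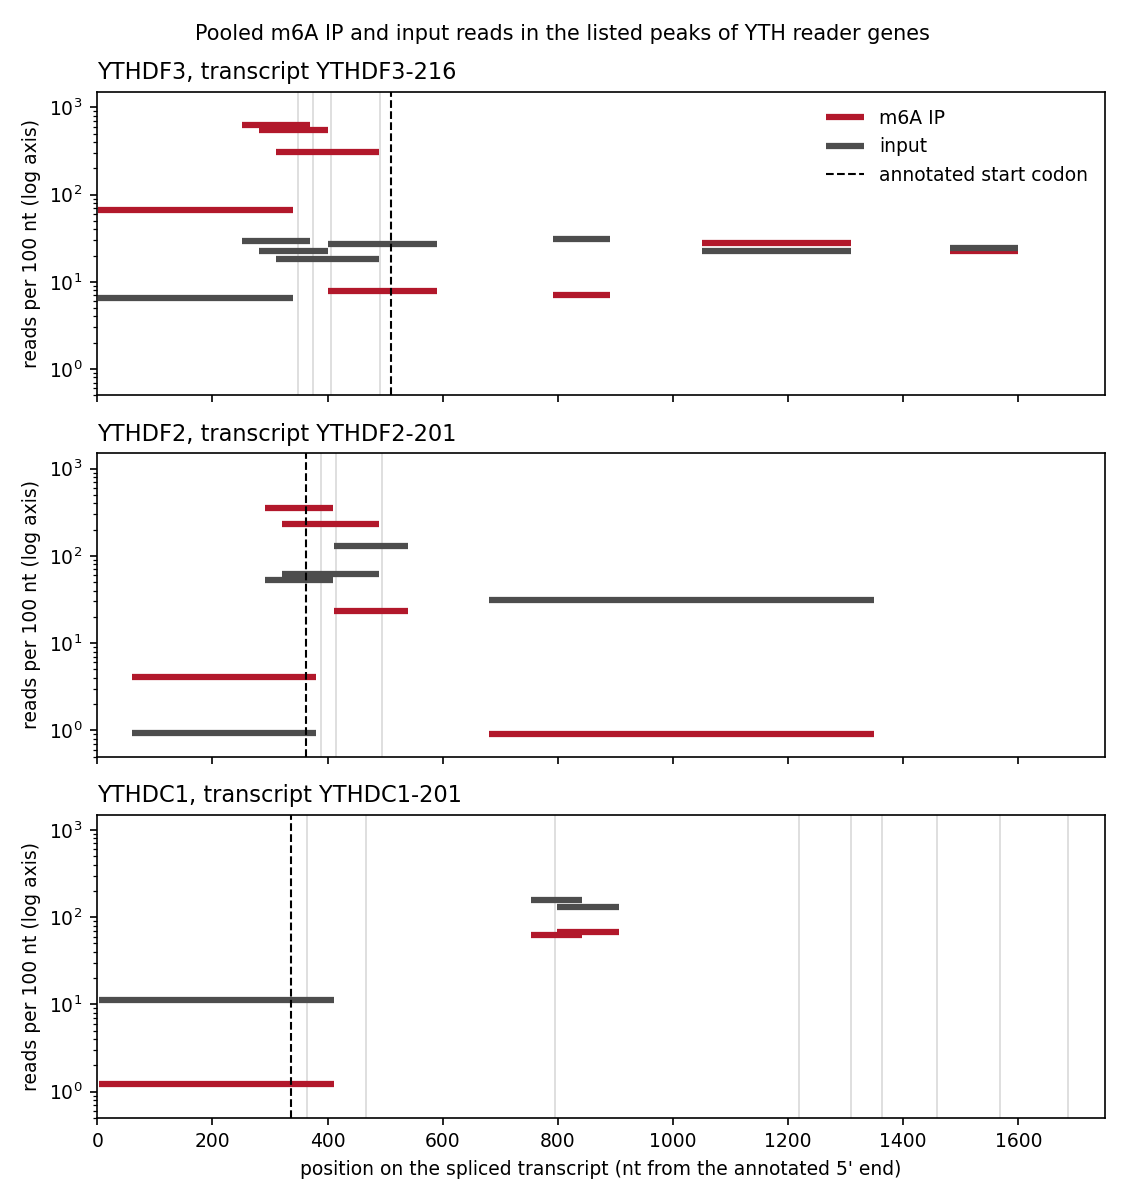
Pooled reads per 100 nt of spliced sequence in each listed peak (vertical log axis) against position from the annotated 5' end in nt, IP in red and input in grey, with start codons dashed and exon ends as light lines. IP stands above input in the first peaks of YTHDF3 and YTHDF2 and below it in the windows that begin at positions 401 and 411. Peaks of both kinds overlap there, up to position 490. YTHDF3 peak 7 stands just above its input further on, whereas in YTHDC1 the input stands above IP throughout.

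YTHDC1 (chromosome 4, minus strand), the nuclear reader, had no peak with more IP than input reads. Peak 1 (positions 3 to 412; 68338337 to 68350087, exons 1 and 2) had 5 IP and 46 input reads, a ratio of 0.109 (0.0337 to 0.272). Peak 2 (753 to 842, exons 3 and 4) had 56 IP and 142 input reads (0.394, 0.284 to 0.541). Peak 3 (798 to 907, exon 4) had 75 IP and 145 input reads (0.517, 0.386 to 0.688). Peaks 2 and 3 overlap and their intervals do too, whereas peak 1 lies below both.

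The 5'-most peak of YTHDC1 had a low ratio of IP to input reads, where those of YTHDF3 and YTHDF2 had higher ones. In YTHDF2 that ratio came from 13 IP and 3 input reads. Its IP reads stood at 4.06 per 100 nt, against 1.22 in YTHDC1 peak 1 and 66.5 in YTHDF3 peak 1. The authors' region column places peak 1 in coding sequence, but 334 of its 410 spliced nt are 5' UTR, and it holds both sequences printed above from the start of the gene. Among peaks whose midpoint is in a 5' UTR its ratio was higher than that of 3.66%, while YTHDF3 peak 1 was higher than 79.0% and YTHDF2 peak 1 higher than 61.6%. Between the peaks nearest the 5' end of each gene, a comparison chosen after their values were seen, the odds of an IP read were 91.4 times as high in YTHDF3 as in YTHDC1 (32.2 to 326; two-sided Fisher's exact test on pooled reads, adjusted p = 5.04e-31). They were 35.98 times as high in YTHDF2 as in YTHDC1 (7.02 to 268; Fisher's exact test, adjusted p = 2.16e-07). YTHDF3 and YTHDF2 did not differ past the threshold there (2.36 times, 0.401 to 9.56; Fisher's exact test, adjusted p = 0.184), at 16 reads in all in the YTHDF2 peak.

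**Figure D3:**
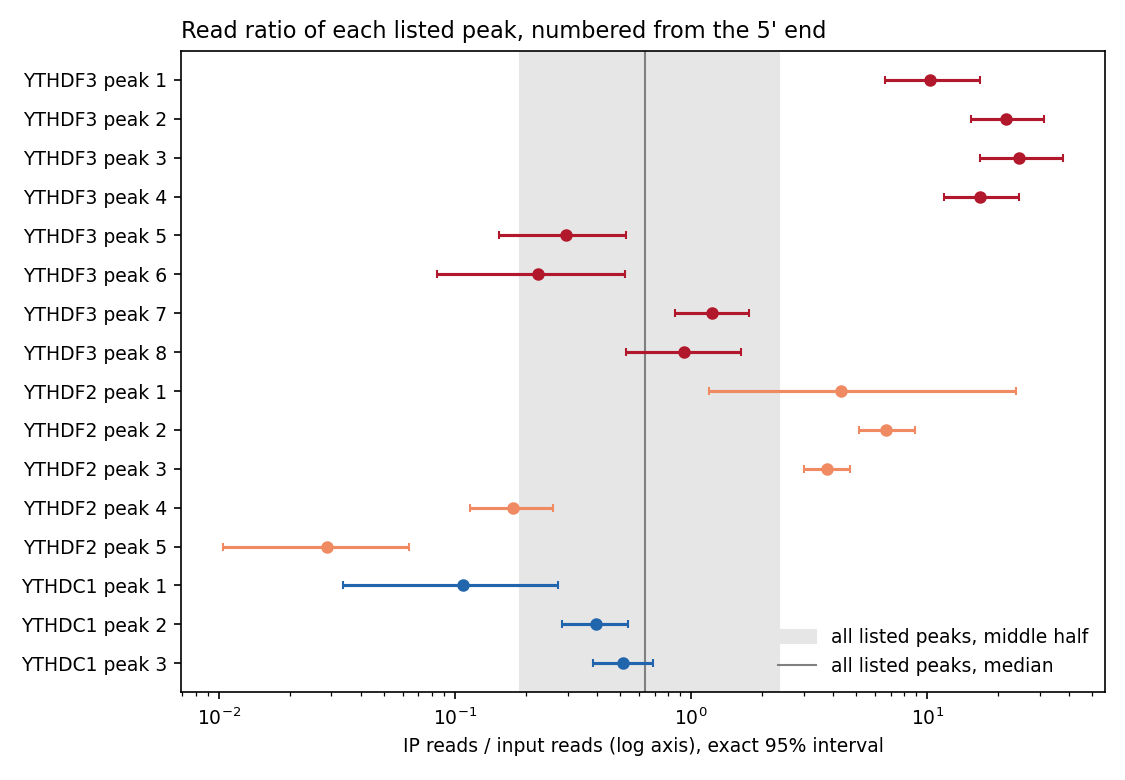
Ratio of IP to input reads (log axis) of the 16 listed peaks with exact 95% intervals, numbered from the 5' end of each gene, with the median (0.640) and interquartile range (0.189 to 2.36) of all listed peaks in grey. YTHDF3 peaks 1 to 4 and YTHDF2 peaks 2 and 3 lie above that range with their whole intervals, and YTHDF2 peak 5 lies below it.

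By the highest peak of each gene the order was YTHDF3, YTHDF2 and YTHDC1. The odds of an IP read in the highest peak were 3.65 times as high in YTHDF3 as in YTHDF2 (2.25 to 6.06; Fisher's exact test, adjusted over the 3 pairs, p = 1.36e-08). They were 12.9 times as high in YTHDF2 as in YTHDC1 (8.68 to 19.4; Fisher's exact test, adjusted p = 6.56e-45) and 47.0 times as high in YTHDF3 as in YTHDC1 (28.9 to 79.0; Fisher's exact test, adjusted p = 7.71e-82). Each peak entered for being the highest of its gene, out of 8 in YTHDF3, 5 in YTHDF2 and 3 in YTHDC1. The tests compare the pooled reads of peaks, not conditions or replicates. Neither the tests nor the percentages below allow for the differing numbers of peaks. Among 7267 genes with a listed peak, the highest ratio of YTHDF3 exceeded that of 89.3% of genes, that of YTHDF2 69.1%, and that of YTHDC1 14.7%. In 43.5% of these genes the highest peak had 4 or more IP reads per input read, as it did in YTHDF3 and YTHDF2 but not in YTHDC1. With overlapping peaks merged, the highest ratio was 13.1 in YTHDF3 and 2.53 in YTHDF2, so YTHDF2 no longer reached 4.

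**Figure D4:**
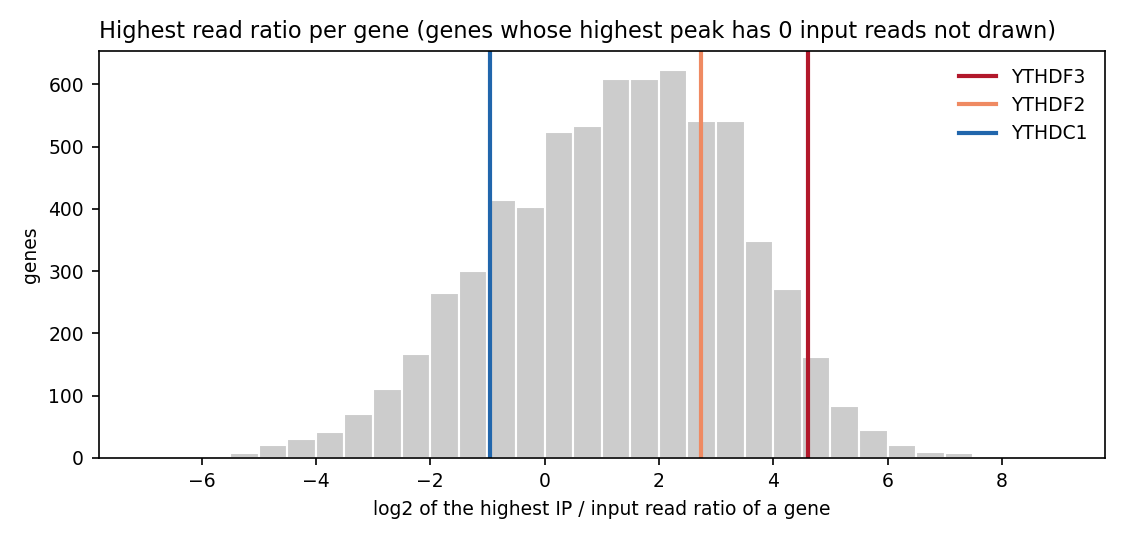
Number of genes by the log2 of their highest ratio of IP to input reads, over 6763 genes whose highest peak has input reads, with the 3 listed YTH genes as vertical lines. YTHDF3 stands in the upper tail, YTHDF2 above the centre and YTHDC1 in the lower part of the distribution.

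Over all placed peaks the ratio moved with base composition, and several of the family's peaks lay far from the level of their own composition. For peaks of 40% to 45% GC the median ratio over all placed peaks was 0.222, and for those of 70% to 75% it was 5.83. YTHDF3 peak 4 had 42.8% GC and a ratio of 16.7, above 99.4% of the 2384 peaks whose GC content was within 2 percentage points. YTHDF3 peak 3 (60% GC) was above 98.8% of such peaks and YTHDF2 peak 3 (50% GC) above 93.5%. YTHDF2 peak 2, with the highest ratio of that gene, was above 77.0% of the peaks near its 66.7% GC. YTHDF2 peak 1, at 71.9% GC, was above 43.3% of its own, near the middle of peaks of that composition. YTHDC1 peak 1, at 61.7% GC, was above 4.15% and YTHDF2 peak 5, at 49.0% GC, above 4.90%. The step in YTHDF3 between peaks 3 and 5 went with a change in GC content, 60% against 40.5%, and that in YTHDF2 between peaks 2 and 4 with 66.7% against 38.5%; the part of base composition in these steps was not tested. YTHDF3 peak 4, at 42.8% GC, shares 90 nt with peak 3 and 90 nt with peak 5, so its GC content averages both sides of the step. The same holds for YTHDF2 peak 3, at 50% GC, which shares 90 nt with peak 2 and 80 nt with peak 4.

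**Figure D5:**
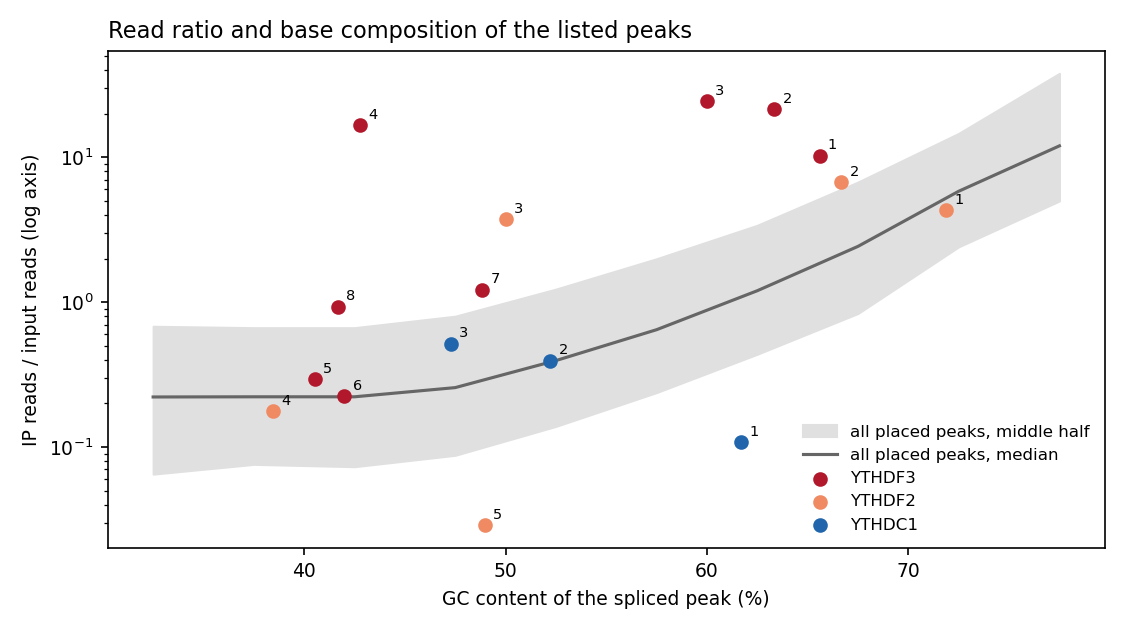
Ratio of IP to input reads (log axis) against GC content of the spliced peak (%), with points for the peaks of YTHDF3, YTHDF2 and YTHDC1 numbered from the 5' end, and the median and interquartile range of all placed peaks in bins of 5 percentage points. YTHDF3 peak 4 lies far above the range for its GC content, and YTHDC1 peak 1 and YTHDF2 peak 5 lie below theirs.

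The core motif GGAC was absent from 6 of the 8 peaks with more IP than input reads, though several of these overlap. A DRACH match was present in 15 of the 16 peaks, and in 95.3% of all 26924 placed peaks. GGAC, the usual core of mapped m6A sites, was present in 5 of the 16 peaks, against 63.4% of all placed peaks, a share not matched for peak length. The share among all placed peaks with more IP than input reads was not determined. Of the 8 peaks with more IP than input reads, the 2 that held a GGAC were YTHDF3 peak 1 and YTHDF2 peak 1. Peaks 2, 3, 4 and 7 of YTHDF3 and peaks 2 and 3 of YTHDF2 held none. Of these, YTHDF3 peaks 2, 3 and 4 overlap each other, as do YTHDF2 peaks 2 and 3, so the same bases are counted in several peaks. The single DRACH match of YTHDF2 peak 2 is the AGACC printed in its coding sequence, at positions 390 to 394, the first bases of exon 2. YTHDF2 peak 5 had the lowest ratio and held 16 DRACH and 2 GGAC matches in 670 nt. YTHDC1 peak 1, also low, held 5 DRACH matches and 2 GGAC. No match says only that these letters are not in the window.

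Input reads per length differed between the peaks of each member, and the ranges of the 3 listed members overlap. In YTHDF3 the input ranged from 6.47 reads per 100 nt in peak 1 to 31.0 in peak 6. In YTHDF2 it ranged from 0.938 in peak 1 to 131 in peak 4, and in YTHDC1 from 11.2 in peak 1 to 158 in peak 2. The median over placed peaks was 35.9 input reads per 100 nt. The lowest input of each gene was thus at its 5'-most peak, where YTHDF2 had 3 reads, and the IP reads of YTHDC1 peak 1 equalled the lowest number in the table, 5.

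The unlisted members also hold motif matches at their 5' ends. The first 500 nt of YTHDF1-202 (3301 nt, chromosome 20, minus strand) hold 8 DRACH and 3 GGAC matches, and those of YTHDC2-201 (6316 nt, chromosome 5, plus strand) hold 6 and 2. The same stretch holds 7 and 2 in YTHDF3, 4 and 1 in YTHDF2, and 8 and 2 in YTHDC1. The 5' UTR of YTHDF1 has the highest GC content of the family at 81.0%, against 72.4% in YTHDF2, 65.5% in YTHDC1, 62.9% in YTHDC2 and 57.4% in YTHDF3. A gene without an entry may be unmethylated, little expressed or under the authors' thresholds.

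The authors' own statistics ordered the family's peaks differently from the reads. In the authors' deposited table the highest window score of YTHDF3 was 11.5, at coding peak 7, and its 3 peaks with the highest read ratios scored 8.94 to 9.12. For YTHDC1 the authors' deposited table gave a score of 6.27 to peak 1, with 5 IP reads, and 1.36 and 2.85 to peaks 2 and 3. YTHDF2 peak 5, with 6 IP and 208 input reads, had a score of 6.89 and a p-value of 9.17e-36 in the authors' deposited table, so a small p there does not mean that IP exceeded input. In the authors' deposited table the FDR lay below the p-value in 7 of the 16 peaks, and in 19.8% of all listed peaks, for example with a p of 0.00103 and an FDR of 2.88e-110 at YTHDF2 peak 1. At those peaks the FDR cannot be an adjusted form of the p-value beside it, how it was made is not given in the sources used here, and neither column is used here as a test.

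Peaks that join exons were 9 of the 16, with genomic spans of 211 to 12569 bp. Several of the 9 overlap, and the share over all listed peaks was not determined. The count is therefore not read as a trait of the family. The peaks that join exons include YTHDF3 peaks 2 to 5 and YTHDF2 peaks 2 to 4. Both the high and the low side of each step thus rest on spliced windows.

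Genes whose pattern of peaks was most like that of a member were ranked by the distance between their highest log2((IP + 1)/(input + 1)) values per region, among genes listed in the same regions. For YTHDF3, with 4.57 in the 5' UTR and 0.28 in coding sequence, the nearest of 1775 genes were GOLGA4 (distance 0.14), OPTN (0.14), CASKIN2 (0.16) and MSRB2 (0.17). For YTHDF2, with 2.73 and -2.46, they were NIP7 (0.07), PAK2 (0.09), TAB2 (0.11) and REEP3 (0.18). YTHDF2 stood at place 863 among the genes nearest to YTHDF3, with a distance of 3.31. YTHDC1 had a coding value alone, at -0.94, and WDHD1, TLDC2, CLGN and SLC4A7 came within 0.01 of it among 2412 genes.

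Genes for partners of the YTH proteins were listed to different extents, and the 36.1% of all protein-coding genes is the level for each count of listed genes below. Among genes for deadenylation and decay factors that work with YTHDF2, 22 of 25 had a listed peak, and in 10 of these 22 the highest ratio was at least 4, a share close to the 43.5% of all listed genes. The median of their highest ratios was 1.65, against 3 over all genes with a peak. The nonsense-mediated decay helicase UPF1 had 58 IP reads and 1 input read in its 5' UTR (58.0, 10.0 to 2330), the CCR4-NOT subunit CNOT11 reached 22.3, TNKS1BP1 17.0 and the RNase P subunit RPP38 8, while RPP40 (0.379) and POP1 (0.217) were lowest. Among nuclear partners of YTHDC1, such as splicing and export factors, 15 of 20 were listed with a median of 0.830. SAFB2 reached 39.4 with 1930 IP and 49 input reads, the cleavage factors CPSF1 and CPSF6 reached 2.25 and 2.10, and the histone demethylase KDM3B had 11 IP reads and no input read, a ratio of at least 3.67 against a floor of 3 counts, with a lower limit of 2.51 in the exact interval. NUDT21 (0.0744) and the splicing factor SRSF1 (0.0339) were lowest.

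Translation factors linked to YTHDF1 and YTHDF3 were listed in 11 of 21 cases, with a median highest ratio of 0.579. EIF3J had 139 IP reads and 1 input read (139, 24.5 to 5529), followed by the scaffold EIF4G1 (7.59), EIF3I (2.85) and EIF4B (1.54), with EIF3L (0.0690) and the helicase EIF4A1 (0.0427) lowest. Of 7 genes grouped with YTHDC2 (XRN1, XRN2, MEIOC, RBM46, DHX36, DHX30 and DHX9), 3 had a listed peak: DHX30 at 0.981, XRN2 at 0.592 and DHX9 at 0.125. Stress granule proteins, with which YTHDF proteins gather, were listed in 8 of 14 cases. UBAP2L reached 4.85 and CAPRIN1 3.07, DDX3X had 5 IP reads and 1 input read (5.00, 0.559 to 236), and ATXN2 had 5 IP reads and no input read (at least 1.67 against the floor, with a lower limit of 0.916 in the exact interval). TIAL1 (0.206) and G3BP1 (0.179) were lowest. The median of this list was 1.90, and 1.19 with ATXN2 at its bound, where that over all genes was 2.68.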

How the data were processed

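The labels give 2 m6A IP and 2 input libraries. The submitters' processing notes name HISAT2, HOMER and GRCh38/hg38 without version or role, and the peak calling method and any pooling are not given in the sources used here. The deposited peak table held whole-number read counts, 1 for IP and 1 for input, treated as pooled, the authors' p-value and FDR, and the authors' window score, whose formula is not stated, per the file headers. The lowest IP count of a peak was 5 and the highest FDR 0.1.

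Of 27855 entries, 177 repeated another and were dropped. Peaks were placed on GENCODE release 29 (GRCh38) transcripts where both ends lay in exons and the spliced length was a multiple of 10 nt (97.3% of peaks). Among a gene's transcripts the coding one that took most peaks was used, and for unlisted members the longest coding one. Ratios are IP over input reads with exact Clopper-Pearson intervals at the 95% level; a count of 0 was set against a floor of 3 counts. Pairs of peaks were compared with two-sided Fisher's exact tests, Benjamini-Hochberg adjusted over 3 pairs at a threshold of 0.05 (Python 3.11.15, SciPy 1.17.1). The intervals and tests were checked on simulated binomial counts only. That check did not cover overlapping windows, variation between libraries or the choice of the highest peak. With 1 column a kind no model across libraries was possible. In each partner list the 4 genes with the highest and the 2 with the lowest highest ratio are named, and for likeness the 4 nearest genes. Alternatives were another pseudocount, read minimum, merging, scaling, threshold, region rule and the authors' score. The members and lists were chosen with earlier results of these data known.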

Additional observations from a re-analysis of the deposited data

How the results depend on the processing

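The highest ratios of YTHDF3, YTHDF2 and YTHDC1 stayed within their intervals with a pseudocount of 1 and with peaks of at least 50 reads. Summing overlapping peaks, which averages high and low windows and counts shared reads again, gave 13.1 for YTHDF3 and 2.53 for YTHDF2, and left 3 windows with more IP than input reads in place of 8 peaks. The authors' deposited table gave highest scores of 11.5 for YTHDF3, 6.91 for YTHDF2 and 6.27 for YTHDC1, on a scale not comparable with read ratios. With the peaks nearest the 5' end, an alternative chosen after seeing the data, the odds ratio of YTHDF3 over YTHDF2 was 2.36 and lost its call at 16 reads in the YTHDF2 peak. Counts of members and of peaks in the 5' UTR were equal under the alternatives run, but by midpoint YTHDF2 peak 3 left the 5' UTR and YTHDC1 peak 1 entered it. No paired analysis was possible because the columns carry no replicate numbers, and for the same reason no library could be left out.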
